A study of Mus musculus with 6 samples.

Results

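The genes described here encode the enzymes that make, interconvert, salvage and break down purine and pyrimidine nucleotides. They were 39 genes chosen by symbol from a list of these enzymes, of 46983 genes in the deposited count table, and all 39 were found. The RNA came from mouse leukemia cells of 2 genotypes. Alox5-/- cells derived from bone marrow cells sorted as LSK, which lack lineage markers and carry Sca-1 and c-Kit, of C57BL/6J Alox5-/- donors, and WT cells from the same population of C57BL/6J wild-type donors. Cells of both genotypes carried the oncogene MLL-AF9, which fuses parts of 2 human genes and was introduced with a retrovirus. GFP-positive cells were transplanted into irradiated C57BL/6J recipients, and all samples were untreated. Each genotype had 3 libraries of poly-A RNA, which the labels call biological replicates without naming the animals. The p-values therefore measure only the spread between these samples. Alox5 encodes 5-lipoxygenase. Which part of it the knockout alters is not stated in the labels.

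Cells build purines step by step on a ribose phosphate taken from PRPP, until inosine monophosphate (IMP) is formed. IMP is then turned into AMP or GMP. The pyrimidine ring is made first and attached to PRPP afterwards, giving UMP, from which CTP and the thymine nucleotides follow. Salvage enzymes recover free bases and nucleosides at a lower energy cost. Dividing leukemia cells draw on both routes for RNA and DNA. Several of the enzymes are targets of drugs used or studied in leukemia, among them IMP dehydrogenase, thymidylate synthase and dihydroorotate dehydrogenase.

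Gene counts per library were 28985597 to 38695948, or 60.0 to 60.9% of all reads. The lowest count of any member in any library was 152, and every member passed the filter on low counts. Alox5 itself had 2044, 1815 and 1929 counts in the Alox5-/- libraries and 3059, 3137 and 4035 in the WT libraries, so its transcript was lower but present in every library labelled Alox5-/-. Levels are given as CPM, the counts per 1000000 counts of genes that passed this filter, after scaling. Kit, which encodes the c-Kit of the sort, had 136 ± 2.73 CPM in Alox5-/- cells, against 159.7 ± 3.09 CPM in WT cells (mean ± SD of 3 libraries, as for all such values). Ly6a, which encodes Sca-1, had 0.763 ± 0.158 CPM in Alox5-/- cells, against 1.06 ± 0.169 CPM in WT cells, close to absent. Alox5-/- replicate 2 stood farthest from the other libraries of its group, with chi-square per degree of freedom of 9.10 and 10.3 in its pairs against 2.19 to 5.08 in the other pairs within a genotype. In bulk samples such as these, fewer cells of a type and less RNA per cell cannot be told apart.

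Most of the nucleotide genes were lower in Alox5-/- cells, each by less than 1.5-fold. By edgeR's quasi-likelihood test with Benjamini-Hochberg adjustment over all 13705 tested genes, 24 of the 39 members fell, 4 rose and 11 did not pass the threshold of an adjusted p of 0.05. Over all tested genes 53.8% passed by the same rule, 27.0% lower and 26.8% higher. Libraries of the 2 genotypes did not overlap for 27 members that were lower in Alox5-/- cells and for 4 that were higher, while 30.2% of all tested genes were lower and 29.7% higher without overlap. The median log2 fold change of Alox5-/- over WT was -0.15 over the members and 0.00 over all tested genes. The 28 members that changed did so by 1.07-fold to 1.41-fold. Without Alox5-/- replicate 2 there were 22 lower and 4 higher members.

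**Figure D1:**
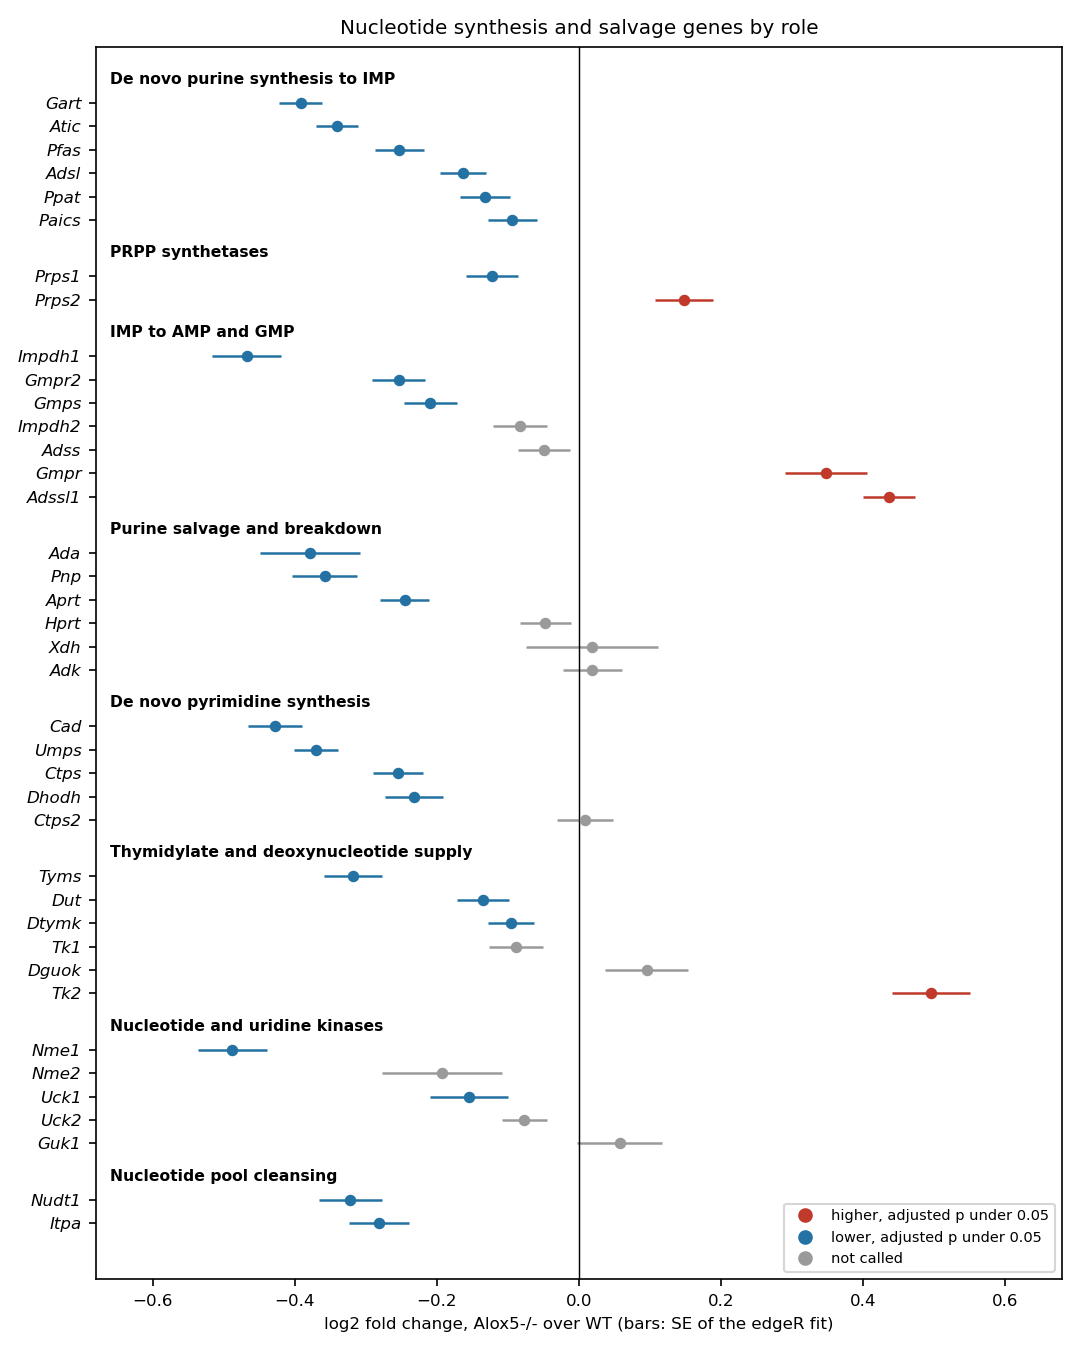
Log2 fold change of each of the 39 genes, Alox5-/- over WT, with the SE of the edgeR fit as bars, grouped by role. Blue points are lower and red points higher at an adjusted p under 0.05. All 6 enzymes from PRPP to IMP lie left of 0, while Tk2, Adssl1, Gmpr and Prps2 lie to the right.

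Promoters of 4 genes are printed because they stand for the opposite directions seen here. Gart and Tyms fell, and Tk2 and Gmpr rose. Each run is the 250 bases before the transcript start in RefSeq, read 5′ to 3′ on the strand of the gene in build GRCm38.p6, the patched form of mm10. None of these windows overlaps an annotated exon. Capitals mark the E-box CACGTG, which MYC and related factors bind, and the GC box GGGCGG, on either strand.
Gart, chr16:91646973-91647222, minus strand: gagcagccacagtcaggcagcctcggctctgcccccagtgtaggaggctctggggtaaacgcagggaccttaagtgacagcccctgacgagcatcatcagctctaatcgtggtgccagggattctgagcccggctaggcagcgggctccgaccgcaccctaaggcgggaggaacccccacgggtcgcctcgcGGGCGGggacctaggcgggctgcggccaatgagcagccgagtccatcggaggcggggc
Tyms, chr5:30073626-30073875, minus strand: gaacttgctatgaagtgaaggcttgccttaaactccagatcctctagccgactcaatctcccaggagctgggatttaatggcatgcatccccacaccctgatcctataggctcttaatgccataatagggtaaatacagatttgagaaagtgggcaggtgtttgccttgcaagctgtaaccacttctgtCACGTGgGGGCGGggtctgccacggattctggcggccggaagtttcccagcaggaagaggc
Tk2, chr8:104248559-104248808, minus strand: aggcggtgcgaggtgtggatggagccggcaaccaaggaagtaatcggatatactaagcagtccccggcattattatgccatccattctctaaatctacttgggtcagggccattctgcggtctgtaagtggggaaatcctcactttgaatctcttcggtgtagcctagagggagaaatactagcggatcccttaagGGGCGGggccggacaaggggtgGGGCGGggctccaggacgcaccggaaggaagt
Gmpr, chr13:45507194-45507443, plus strand: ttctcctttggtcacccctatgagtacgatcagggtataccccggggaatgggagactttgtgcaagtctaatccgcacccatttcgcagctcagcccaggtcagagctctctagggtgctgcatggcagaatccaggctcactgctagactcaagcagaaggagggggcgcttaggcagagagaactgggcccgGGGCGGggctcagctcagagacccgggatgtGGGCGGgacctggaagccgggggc

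Of these 4 stretches, that of Tyms holds an E-box, beside a GC box, and those of Gart, Tk2 and Gmpr hold GC boxes and no E-box. RefSeq windows from 250 bases before to 50 after the start were found for 36 members. Dhodh, Pfas and Xdh were not in the table. An E-box lay in the windows of 6 of the 36 genes (16.7%), namely Atic, Dtymk, Impdh2, Nme1, Paics and Tyms, against 12.1% of 9348 tested genes with a window. Among the members that fell it was 5 of 22, among those that rose 0 of 4 and among those not called 1 of 10. Shares among all tested genes that fell or rose were not counted. A GC box was in 28 of the 36 (77.8%), against 68.4% of the tested genes, and a CCAAT box in 13 of 36 (36.1%), against 43.2%. For members that fell, rose and were not called, the GC box was in 17 of 22, 3 of 4 and 8 of 10. The CCAAT box was in 8 of 22, 0 of 4 and 5 of 10 of them. The E2F motif TTTGGCGC was in none and TTTCCCGC in Ppat and Prps2 (5.56%), while TGATGNAA, a composite site of ATF4, was in Prps1 (2.78%). In tested genes the shares of these 3 motifs were 1.23%, 2.42% and 2.82%. Both strands were searched, and none of these motifs contains another. The matches describe letters and not binding.

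All 6 enzymes of the route from PRPP to IMP fell. Gart, a trifunctional enzyme that acts at 3 of its steps, stood at 221, 218 and 219.6 CPM in Alox5-/- cells, against 286, 285 and 293 CPM in WT cells. Atic, which carries out the last 2 steps to IMP, stood at 213, 213 and 214 CPM in Alox5-/- cells, against 270.01, 271 and 269 CPM in WT cells. For both genes every Alox5-/- library lay well below every WT library, and the libraries of a genotype were close together. Their log2 fold changes were -0.39 for Gart (SE 0.03; edgeR adjusted p = 5.39e-08) and -0.34 for Atic (SE 0.03; edgeR adjusted p = 1.69e-07). Both enzymes use formyl groups carried by folate. Gart shares 15.5% of its 50-base words with Gm15964, an overlapping gene on the other strand with 1683 counts over all libraries. Pfas, which forms an amidine in this route, had 139.5, 132 and 132 CPM in Alox5-/- cells, against 163, 159 and 159 CPM in WT cells (log2 change of -0.25 with an SE of 0.03; edgeR adjusted p = 1.75e-05).

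The other 3 enzymes of the route changed less. Ppat, which commits PRPP to purines, was 128 ± 1.32 CPM in Alox5-/- cells, against 141 ± 5.27 CPM in WT cells (log2 change -0.13; edgeR adjusted p = 0.00496). Adsl, which releases fumarate in purine synthesis, was 137 ± 3.12 CPM in Alox5-/- cells, against 154 ± 1.99 CPM in WT cells (-0.16; edgeR adjusted p = 0.000577). Paics, a bifunctional enzyme of the middle steps, had the smallest change, with 323, 308 and 325 CPM in Alox5-/- cells, against 331, 354 and 336 CPM in WT cells (-0.09; edgeR adjusted p = 0.0329). The Paics call was lost under 7 of 14 alternatives, among them those without Alox5-/- replicate 1, 2 or 3 (edgeR adjusted p = 0.0527, 0.161 and 0.0502) or WT replicate 2 (edgeR adjusted p = 0.0981). Ppat and Paics lie head to head on chromosome 5, Ppat from 76913249 to 76951578 on the minus strand and Paics from 76951307 to 76967509 on the plus strand (mm10). Their starts are 271 bases apart and their 5′ ends overlap. No label states whether counting used strand, so reads there cannot be assigned with certainty.

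The PRPP synthetases, which make the ribose donor of both pathways, went in opposite directions. Prps1 stood at 91.7, 90.9 and 95.8 CPM in Alox5-/- cells, against 98.4, 105 and 100.2 CPM in WT cells (log2 change of -0.12 with an SE of 0.04; edgeR adjusted p = 0.0110). Prps2, the other isoform, stood at 62.3, 66.4 and 64.3 CPM in Alox5-/- cells, against 60.1, 57.3 and 56.9 CPM in WT cells (0.15 with an SE of 0.04; edgeR adjusted p = 0.00601). The groups did not overlap for either gene, although the gap was narrow for both. Without Alox5-/- replicate 2 the Prps1 call was lost (edgeR adjusted p = 0.0538). Both genes are X-linked, as are Hprt and Ctps2, and Xist, the RNA that silences the inactive X chromosome, was 181 ± 14.3 CPM in Alox5-/- cells, against 1782 ± 117 CPM in WT cells. Xist was lower in every Alox5-/- library, so what goes with it cannot be separated from genotype here. Its part in the values of the members, X-linked or not, was not tested. Of 469 tested X-linked genes 27.9% were lower and 20.3% higher, and of the 4 X-linked members 1 fell, 1 rose and 2 were not called.

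In the branch from IMP to AMP and GMP, the members split 3 lower, 2 higher and 2 not called. Impdh1, an isoform of the rate-limiting enzyme of GMP synthesis, stood at 44.3, 44.1 and 40.2 CPM in Alox5-/- cells, against 61.2, 56.3 and 60.2 CPM in WT cells (log2 change of -0.47 with an SE of 0.05; edgeR adjusted p = 1.28e-06). Gmps, which completes GMP, was 136 ± 0.589 CPM in Alox5-/- cells, against 158 ± 7.76 CPM in WT cells (-0.21; edgeR adjusted p = 0.000231). Both lay below WT in every library. Impdh2, the isoform known to rise with proliferation, had 49.9, 48.6 and 49.7 CPM in Alox5-/- cells, against 52.0, 52.4 and 52.6 CPM in WT cells. The Impdh2 groups did not overlap, but the difference did not pass (log2 change of -0.08 with an SE of 0.04; edgeR adjusted p = 0.0831). Of the 50-base words in Impdh2 transcripts, 39.3% also occur in the pseudogene Impdh2-ps, so its level is uncertain.

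The 2 members of this branch that rose were Adssl1 and Gmpr. Adssl1, the isozyme of adenylosuccinate synthase best known from muscle, stood at 106, 112 and 108 CPM in Alox5-/- cells, against 82.0, 81.4 and 77.9 CPM in WT cells (log2 change of 0.44 with an SE of 0.04; edgeR adjusted p = 1.35e-07). Adss, the widely expressed isozyme, had 146, 154 and 149.6 CPM in Alox5-/- cells, against 152, 162 and 151 CPM in WT cells, with overlapping groups (-0.05 with an SE of 0.04; edgeR adjusted p = 0.280). Gmpr and Gmpr2 encode GMP reductases, which return GMP to IMP, and they moved apart. Gmpr had 25.5, 24.1 and 24.6 CPM in Alox5-/- cells, against 20.1, 18.3 and 19.9 CPM in WT cells (0.35 with an SE of 0.06; edgeR adjusted p = 0.000125). Gmpr2 had 59.8, 58.0 and 58.2 CPM in Alox5-/- cells, against 68.0, 70.7 and 71.2 CPM in WT cells (-0.25 with an SE of 0.04; edgeR adjusted p = 4.34e-05). Both GMP reductase genes overlap a gene on the other strand, with which 14.4% of the 50-base words of Gmpr (Atxn1) and 33.3% of those of Gmpr2 (Tinf2) are shared. Tinf2 itself was higher, at 45.9 ± 2.59 CPM in Alox5-/- cells, against 32.1 ± 0.181 CPM in WT cells.

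**Figure D2:**
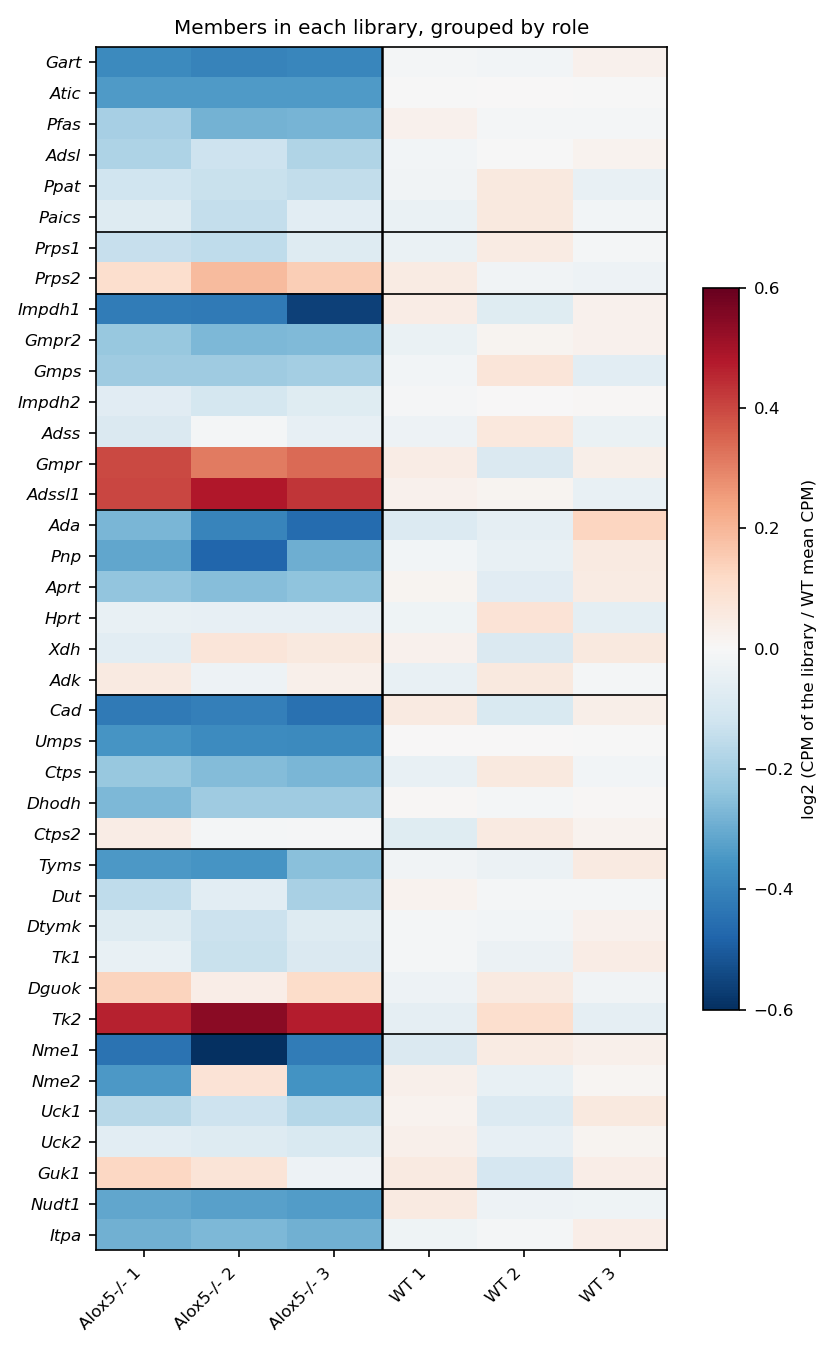
Each of the 39 genes in each of the 6 libraries, as log2 of its CPM over the WT mean CPM of that gene, with Alox5-/- libraries on the left and rows grouped by role. Blue is below and red above the WT mean. Nme2 in Alox5-/- replicate 2 differs from the other Alox5-/- libraries, which are 53.9 and 53.4 CPM against its 72.6 CPM.

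Among purine salvage and breakdown genes 3 of 6 fell and 3 were not called. Pnp, which splits purine nucleosides into base and sugar phosphate, stood at 95.6, 85.2 and 96.9 CPM in Alox5-/- cells, against 117, 115 and 123 CPM in WT cells (log2 change of -0.36 with an SE of 0.05; edgeR adjusted p = 1.13e-05). Aprt, which salvages adenine, stood at 210.2, 207 and 209 CPM in Alox5-/- cells, against 250.1, 236 and 256 CPM in WT cells (-0.25 with an SE of 0.03; edgeR adjusted p = 2.75e-05). Ada, the adenosine deaminase, stood at 18.6, 17.2 and 16.4 CPM in Alox5-/- cells, against 21.3, 21.7 and 24.7 CPM in WT cells (-0.38 with an SE of 0.07; edgeR adjusted p = 0.000347). No library of either genotype crossed into the range of the other for these 3 genes. The Pnp value is uncertain, because the annotation used here gives the counted Pnp identifier only 750 exon bases and 95.4% of its 50-base words are shared with a second, overlapping entry of the same name. A neighbouring gene, Pnp2, had 6.58 ± 0.646 CPM in Alox5-/- cells, against 5.92 ± 0.134 CPM in WT cells.

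The other 3 genes of this group overlapped between genotypes. Hprt, which salvages hypoxanthine and guanine and activates thiopurine drugs, was 267 ± 0.307 CPM in Alox5-/- cells, against 276 ± 14.1 CPM in WT cells (log2 change of -0.05 with an SE of 0.04; edgeR adjusted p = 0.292). Adk, the adenosine kinase, was 58.8 ± 1.76 CPM in Alox5-/- cells, against 58.0 ± 2.14 CPM in WT cells (0.02 with an SE of 0.04; edgeR adjusted p = 0.728). Xdh, which oxidises hypoxanthine to urate, was the least expressed member at 5.52 ± 0.280 CPM in Alox5-/- cells, against 5.43 ± 0.282 CPM in WT cells (0.02 with an SE of 0.09; edgeR adjusted p = 0.884).

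De novo pyrimidine genes fell in 4 of 5 cases, from the first enzyme to the last. Cad, the trifunctional enzyme that begins the pathway, stood at 226, 228 and 223 CPM in Alox5-/- cells, against 315, 285 and 310.3 CPM in WT cells. Umps, which attaches the ring to PRPP and forms UMP, stood at 141, 138 and 138 CPM in Alox5-/- cells, against 179.8, 180.02 and 179 CPM in WT cells. The gap between genotypes was wide for both, and the WT libraries were within 1 CPM of each other for Umps. The log2 fold changes were -0.43 for Cad (SE 0.04; edgeR adjusted p = 2.20e-07) and -0.37 for Umps (SE 0.03; edgeR adjusted p = 1.08e-07). Dhodh, the mitochondrial enzyme between them, whose inhibition is known to push acute myeloid leukemia cells to differentiate, was 43.3 ± 1.01 CPM in Alox5-/- cells, against 50.9 ± 0.345 CPM in WT cells (-0.23; edgeR adjusted p = 0.000195).

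The CTP synthases that end the pathway differed from each other. Ctps stood at 127, 124 and 123 CPM in Alox5-/- cells, against 144, 154 and 147 CPM in WT cells (log2 change of -0.25 with an SE of 0.04; edgeR adjusted p = 2.23e-05). Ctps2, the X-linked isoform, stood at 91.2, 87.9 and 88.1 CPM in Alox5-/- cells, against 84.0, 91.8 and 89.7 CPM in WT cells, with the groups overlapping (0.01 with an SE of 0.04; edgeR adjusted p = 0.868).

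In thymidylate and deoxynucleotide supply 3 of 6 genes fell, 1 rose and 2 were not called. Tyms, which makes thymidylate and is the target of fluoropyrimidines, stood at 59.5, 59.1 and 63.4 CPM in Alox5-/- cells, against 74.5, 73.9 and 78.4 CPM in WT cells (log2 change of -0.32 with an SE of 0.04; edgeR adjusted p = 1.15e-05). Dut, which removes dUTP, stood at 158, 168 and 154 CPM in Alox5-/- cells, against 178, 174 and 174 CPM in WT cells (-0.14 with an SE of 0.04; edgeR adjusted p = 0.00567). Dtymk, the thymidylate kinase, was 142 ± 2.97 CPM in Alox5-/- cells, against 152 ± 2.25 CPM in WT cells (-0.10; edgeR adjusted p = 0.0208). The Dtymk call was lost under 5 of 14 alternatives, among them those without Alox5-/- replicate 2 (edgeR adjusted p = 0.112) or WT replicate 3 (edgeR adjusted p = 0.0739).

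Tk2, the thymidine kinase of mitochondria, had the largest rise of all members. It stood at 33.8, 35.7 and 34.0 CPM in Alox5-/- cells, against 23.6, 26.3 and 23.6 CPM in WT cells (log2 change of 0.50 with an SE of 0.06; edgeR adjusted p = 2.80e-06). Tk1, its cytosolic counterpart of S phase, stood at 90.9, 85.4 and 88.2 CPM in Alox5-/- cells, against 93.0, 91.3 and 96.8 CPM in WT cells. The Tk1 groups did not overlap, by a margin under 1 CPM, and the difference did not pass (-0.09 with an SE of 0.04; edgeR adjusted p = 0.0583). It did pass without Alox5-/- replicate 1 (edgeR adjusted p = 0.0451) or WT replicate 2 (edgeR adjusted p = 0.0280). Dguok, the other mitochondrial deoxynucleoside kinase, was 19.4 ± 0.654 CPM in Alox5-/- cells, against 18.2 ± 0.590 CPM in WT cells, with overlapping groups (0.10 with an SE of 0.06; edgeR adjusted p = 0.183).

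Of the nucleotide and uridine kinases 2 of 5 fell and 3 were not called. Nme1, a nucleoside diphosphate kinase, fell as deeply as any member, close to Impdh1. It stood at 98.0, 87.3 and 99.4 CPM in Alox5-/- cells, against 125, 138 and 136 CPM in WT cells (log2 change of -0.49 with an SE of 0.05; edgeR adjusted p = 8.45e-07). Nme2, its neighbour and close relative, stood at 53.9, 72.6 and 53.4 CPM in Alox5-/- cells, against 69.9, 66.5 and 69.1 CPM in WT cells. The Nme2 groups overlapped through Alox5-/- replicate 2 alone, which was the highest of the 6 libraries. With all libraries Nme2 did not pass (-0.19 with an SE of 0.08; edgeR adjusted p = 0.0671), and without that library it was lower (-0.35; edgeR adjusted p = 3.53e-06). In that same library Nme1 was the lowest of the 6, and without it the log2 change was -0.42 for Nme1 and -0.48 for Impdh1.

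Counts of this pair are uncertain. The annotation holds a gene model, Gm20390, that joins Nme1 and Nme2 and shares 47.0% of the 50-base words of Nme2 and 11.1% of those of Nme1. The sum of Nme1 and Nme2 was 152, 159.9 and 153 CPM in Alox5-/- cells, against 195, 204 and 205 CPM in WT cells, so that the sum did not overlap between genotypes. Uck1 and Uck2, the uridine-cytidine kinases, both had small differences. Uck1 stood at 22.8, 23.5 and 22.8 CPM in Alox5-/- cells, against 26.0, 24.2 and 26.6 CPM in WT cells (log2 change of -0.15 with an SE of 0.06; edgeR adjusted p = 0.0275). Uck2 stood at 293, 291 and 287 CPM in Alox5-/- cells, against 313, 296 and 309.7 CPM in WT cells, without overlap but short of the threshold (-0.08 with an SE of 0.03; edgeR adjusted p = 0.0521). The Uck1 call was lost under 8 of 14 alternatives, among them those without Alox5-/- replicate 1 or 3 (edgeR adjusted p = 0.0735 and 0.0871) or WT replicate 1 or 3 (edgeR adjusted p = 0.0792 and 0.118). Uck2 passed under 3, among them the one without WT replicate 2 (edgeR adjusted p = 0.00898). Another annotated gene, Gm4482, shares 17.3% of the 50-base words of Uck1. Guk1, the guanylate kinase, was 26.1 ± 1.39 CPM in Alox5-/- cells, against 25.1 ± 1.46 CPM in WT cells (0.06 with an SE of 0.06; edgeR adjusted p = 0.444).

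Both enzymes that clear damaged or wrong nucleotides from the pool fell. Nudt1, which hydrolyses oxidised purine triphosphates, stood at 36.8, 36.4 and 36.2 CPM in Alox5-/- cells, against 47.4, 44.6 and 44.8 CPM in WT cells (log2 change of -0.32 with an SE of 0.04; edgeR adjusted p = 2.12e-05). Itpa, which hydrolyses inosine triphosphate, stood at 38.3, 38.8 and 38.3 CPM in Alox5-/- cells, against 45.9, 46.3 and 48.1 CPM in WT cells (-0.28 with an SE of 0.04; edgeR adjusted p = 4.97e-05). The Alox5-/- libraries were within 1 CPM of each other for each gene and all below WT. A pseudogene, Itpa-ps1, shares 19.7% of the 50-base words of Itpa.

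**Figure D3:**
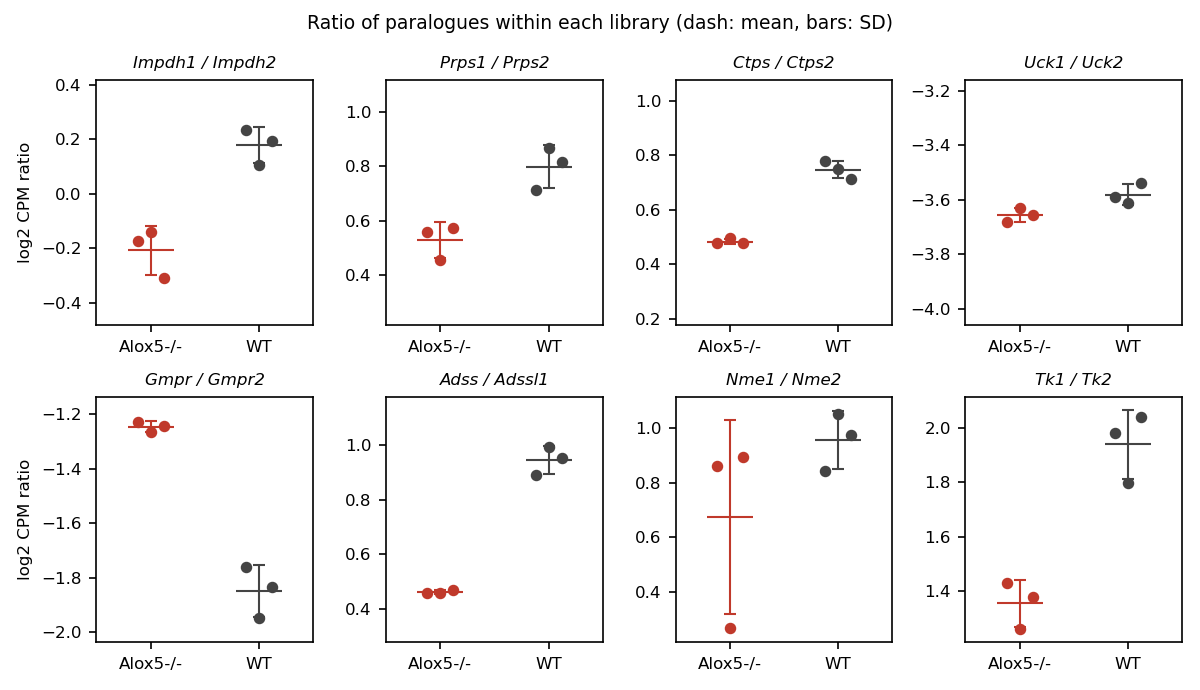
Log2 ratio of the CPM of paired genes in each library, for 8 pairs, with Alox5-/- left and WT right (points: libraries, dash: mean, bars: SD). Each axis spans its own range. In all pairs except Nme1 and Nme2 the libraries of the genotypes are separated.

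Ratios of paired genes within a library do not depend on how libraries are scaled. They were compared for 8 pairs of related enzymes, and 3 libraries against 3 cannot give a two-sided exact permutation p under 0.1. Tk1 over Tk2 had a mean log2 ratio of 1.36 ± 0.0871 in Alox5-/- cells, against 1.94 ± 0.125 in WT, a difference of -0.58. Gmpr over Gmpr2 was -1.25 ± 0.0185 in Alox5-/- cells, against -1.85 ± 0.0946 in WT, a difference of 0.60. Adss over Adssl1 was 0.46 ± 0.00639 in Alox5-/- cells, against 0.95 ± 0.0526 in WT, a difference of -0.48. These ratios were the farthest apart, each with no overlap between genotypes.

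The ratio of Impdh1 to Impdh2 changed sign on the log2 scale, at -0.21 ± 0.0892 in Alox5-/- cells, against 0.18 ± 0.0661 in WT. Prps1 over Prps2 differed by -0.27, Ctps over Ctps2 by -0.26 and Uck1 over Uck2 by -0.08. For these 7 pairs the exact permutation p was 0.1, the smallest possible (0.114 after Benjamini-Hochberg adjustment over 8 pairs), so none could pass 0.05. Nme1 over Nme2 overlapped between genotypes (difference -0.28, exact permutation p = 0.3). Without Alox5-/- replicate 2 that difference was -0.08.

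Levels of different genes were compared as CPM per kilobase of annotated exons, leaving out Pnp. Exon length was the union over all annotated transcripts, so the order depends on the annotation. For Paics it was 3139 bases, for Gart 5144 and for Atic 7985. Hprt stood highest, at 207 ± 0.238 CPM per kilobase in Alox5-/- cells, against 214 ± 11.0 in WT, followed by Aprt at 129 ± 1.01 in Alox5-/- cells, against 153 ± 6.28 in WT. Next came Paics, at 102 ± 2.92 in Alox5-/- cells, against 108 ± 3.83 in WT. On this scale the other 5 enzymes from PRPP to IMP lay between 16.9 and 42.7 in Alox5-/- cells and between 20.2 and 56.0 in WT cells. Before division by length, Gart and Atic were closer to Paics, with 288 and 270 CPM against 340 CPM in WT cells. At the low end were Dguok, with 4.21 ± 0.142 in Alox5-/- cells, against 3.94 ± 0.128 in WT, and Xdh, with 0.602 ± 0.0305 in Alox5-/- cells and 0.592 ± 0.0307 in WT cells. Although Adss had the higher CPM in both genotypes, Adssl1 stood above it on this per-kilobase scale. Adssl1 had 52.0 ± 1.49 in Alox5-/- cells and 38.5 ± 1.06 in WT cells, and Adss had 33.0 ± 0.897 in Alox5-/- cells and 34.2 ± 1.38 in WT cells.

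Neighbouring steps of nucleotide metabolism were read from further lists. Over all tested genes 27.0% were called lower and 26.8% higher, so counts near these shares do not set a list apart. Ribonucleotide reductase, which turns ribonucleotides into deoxyribonucleotides, and related dNTP genes fell in 5 of 7 tested cases and rose in 1. Rrm1, the large subunit, was 469 ± 9.19 CPM in Alox5-/- cells, against 604 ± 12.1 CPM in WT cells (log2 change -0.37; edgeR adjusted p = 1.20e-07). Dctpp1, which degrades dCTP, was 46.1 ± 0.856 CPM in Alox5-/- cells, against 57.7 ± 2.61 CPM in WT cells (-0.32; edgeR adjusted p = 1.66e-05). The gene that rose was Rrm2b, the small subunit induced by p53 and used outside S phase, at 55.7 ± 3.11 CPM in Alox5-/- cells, against 31.2 ± 1.65 CPM in WT cells (0.84; edgeR adjusted p = 6.84e-09). Of the pentose phosphate enzymes, which supply ribose phosphate, 4 of 7 fell and 2 rose. Rpia, which forms ribose phosphate, was 139 ± 1.22 CPM in Alox5-/- cells, against 191 ± 3.52 CPM in WT cells (-0.46), and G6pdx and Pgd, the dehydrogenases of the route, changed by -0.44 and -0.22 on the log2 scale.

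Folate and related carbon-donor genes went both ways, with 7 of 18 tested genes higher and 6 lower. Mthfd1, the cytosolic enzyme that makes the formyl folate used by Gart and Atic, was 119 ± 2.57 CPM in Alox5-/- cells, against 167 ± 2.15 CPM in WT cells (log2 change -0.49; edgeR adjusted p = 1.10e-08). Aldh1l2, a mitochondrial formyl folate dehydrogenase, was 51.9 ± 1.49 CPM in Alox5-/- cells, against 22.3 ± 1.95 CPM in WT cells (1.22; edgeR adjusted p = 3.19e-10). Psph, the last enzyme of serine synthesis, was 85.5 ± 1.14 CPM in Alox5-/- cells, against 50.8 ± 1.35 CPM in WT cells (0.75; edgeR adjusted p = 4.83e-10).

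**Figure D4:**
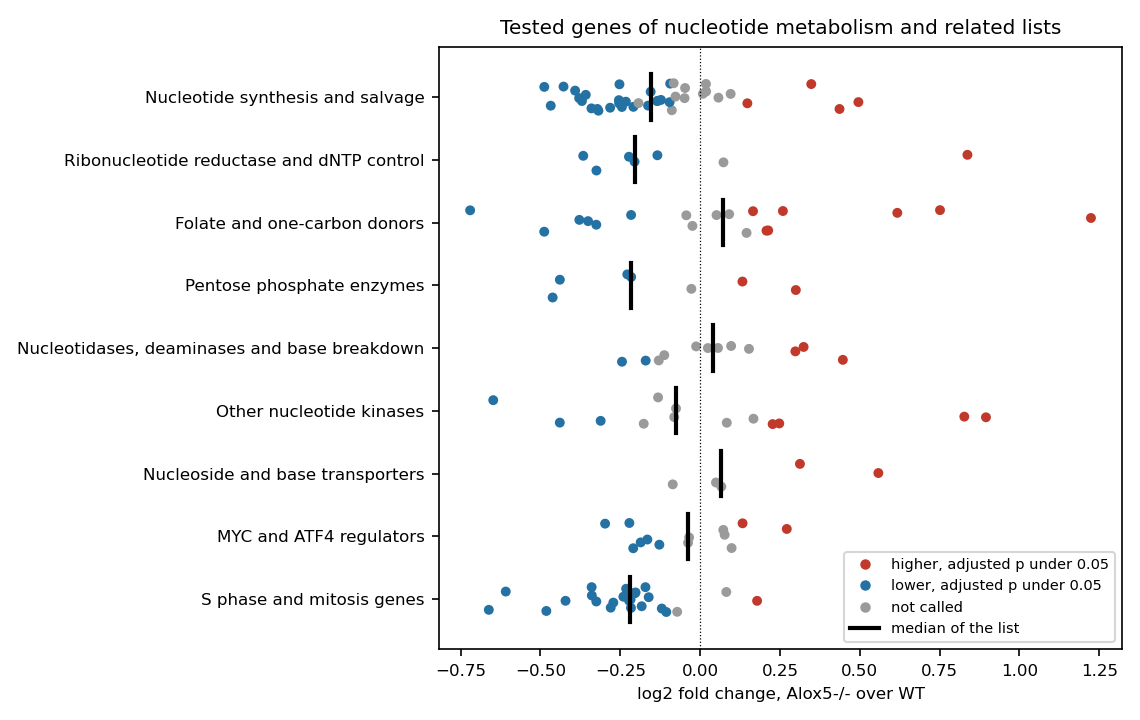
Log2 fold change, Alox5-/- over WT, of every tested gene of the nucleotide genes and 8 related lists, with points placed at random height within a row and black bars at the median of each list. The medians are -0.15 for the nucleotide genes, -0.22 for S phase and mitosis genes and 0.07 for folate and carbon-donor genes.

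Nucleotidases and deaminases had 3 of 12 tested genes higher (25.0%) and 2 lower (16.7%), against 26.8% and 27.0% of all tested genes. Nt5e, the surface nucleotidase CD73, was 58.1 ± 0.885 CPM in Alox5-/- cells, against 42.6 ± 0.417 CPM in WT cells (log2 change 0.45; edgeR adjusted p = 2.06e-07), and Gda, guanine deaminase, was 509.9 ± 10.7 CPM in Alox5-/- cells, against 407 ± 16.6 CPM in WT cells (0.32; edgeR adjusted p = 1.57e-06). Ampd2, an AMP deaminase, fell (-0.24). Nucleoside and base transporters had 2 of 5 higher and 0 lower. Slc43a3, a purine base transporter, was 165 ± 2.94 CPM in Alox5-/- cells, against 112 ± 0.597 CPM in WT cells (0.56; edgeR adjusted p = 2.10e-09), and Slc28a2, a concentrative nucleoside transporter, rose by 0.31. Among the other nucleotide kinases 4 of 13 rose (30.8%) and 3 fell (23.1%), with the mitochondrial kinases Ak4 at 0.83, Cmpk2 at -0.44 and Nme6 at -0.31.

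Most cell division genes of the list were also lower in Alox5-/- cells. Of 26 tested S phase and mitosis genes 23 fell (88.5%) and 1 rose (3.85%), with a median log2 fold change of -0.22. Over all tested genes 27.0% were lower and 26.8% higher. Mcm4 and Mcm5, subunits of the replicative helicase, changed by -0.48 and -0.34, and cyclin E1 (Ccne1) by -0.66. The part of cell division in the lower nucleotide genes was not tested. Among MYC and ATF4 regulators 6 of 13 tested genes fell and 2 rose. Myc, a known activator of nucleotide synthesis genes, was 352 ± 19.0 CPM in Alox5-/- cells, against 292 ± 12.2 CPM in WT cells (0.27; edgeR adjusted p = 5.48e-05). The part of Myc in the values of the members was not tested. Mlx and Nrf1, both transcription factors, changed by -0.30 and -0.22.

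Markers of other cell types were read as summed CPM, and a single gene made up most of several sums. T and NK cell markers summed to 18.0 to 18.8 CPM in Alox5-/- cells, against 13.4 to 15.3 CPM in WT cells, nearly all of it Lck, with 8 of 10 genes, Cd3e among them, at 3 or fewer counts over all libraries. B cell markers summed to 50.2 to 56.3 CPM in Alox5-/- cells, against 49.1 to 52.3 CPM in WT cells, nearly all of it Ighm, with Ms4a1 and Ebf1 at 3 or fewer counts. Stromal and endothelial markers summed to 194 to 199 CPM in Alox5-/- cells, against 174 to 175 CPM in WT cells, nearly all of it Pecam1, with Col1a2, Col3a1 and Kdr at 3 or fewer counts. Some defining genes of these 3 lists were thus at or near 0, but only 2 of 7 B cell and 3 of 8 stromal and endothelial markers had so few counts. Cd79b had 26 to 50 counts per library. Lck and Pecam1 were called higher (log2 change 0.33 and 0.18), and Ighm was not called. Erythroid markers summed to under 1 CPM in every library. Macrophage and monocyte markers summed to 1439 to 1559 CPM in Alox5-/- cells, against 1612 to 1660.1 CPM in WT cells, most of it Ly6c2, with C1qa, C1qb and C1qc at 3 or fewer counts.

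Neutrophil markers differed in direction between their sum and most of their genes. They summed to 3773 to 3898 CPM in Alox5-/- cells, against 3452 to 3755 CPM in WT cells, and most of this was Ctsg, the protease cathepsin G, at 2712 ± 26.8 CPM in Alox5-/- cells, against 2229 ± 45.5 CPM in WT cells. Of 11 tested neutrophil markers 7 fell and 3 rose, with a median log2 change of -0.70. Mpo, the myeloperoxidase of granules, was 65.6 ± 7.76 CPM in Alox5-/- cells, against 197 ± 13.4 CPM in WT cells, and S100a8, S100a9 and Ngp changed by -1.66, -1.18 and -1.43 on the log2 scale. The 3 that rose were Ctsg, Lcn2 and Ly6g, with log2 changes of 0.28, 1.03 and 0.53. Mast cell and basophil markers summed to 112 to 117 CPM in Alox5-/- cells, against 175 to 187 CPM in WT cells. Of 5 tested genes of that list 2 fell and 1 rose. Hdc, the histidine decarboxylase, made up most of the gap between the sums, with 35.1 ± 2.51 CPM in Alox5-/- cells, against 96.0 ± 4.62 CPM in WT cells. Cpa3 also fell (log2 change -2.21), Ms4a2 rose (0.37), and Mcpt8 and Gata2 were not called (-0.17 and 0.09). Of 7 tested macrophage markers 3 fell (Cx3cr1 -1.80, at under 1 CPM, Adgre1 -0.39 and Ly6c2 -0.14) and 2 rose (Vcam1 2.04 and Cd68 0.47). Of 8 progenitor and MLL-AF9 markers 4 fell (Hoxa10 -0.33, Myb -0.23, Kit -0.23 and Cebpa -0.13). The 3 that rose were Flt3 (0.91), Cd34 (0.36) and Hoxa9 (0.33). Over all tested genes 27.0% were lower and 26.8% higher, so counts near these shares do not set a marker list apart. Progenitor markers summed to 1609.6 to 1639 CPM in Alox5-/- cells, against 1650.5 to 1692 CPM in WT cells. The part of these cell types in the nucleotide genes was not tested. The genes named from these lists were chosen after their values were seen.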

How the data were processed

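The authors deposited raw read counts per gene for 6 libraries, made with HTSeq on build mm10 according to the submitters' processing notes. DESeq2 is named there too. Per the labels' protocols, cells were sorted into a lysis reagent and a SMARTer kit amplified cDNA of poly-A RNA. No label states the aligner, the annotation release or whether counting used strand. Reads aligned to several places, 24.4 to 24.8% of all reads, were not counted to genes, which lowers genes with near-identical copies. The 5 summary rows, which name no gene, stayed out of library sizes and tests, and 27 symbols turned into dates were restored by identifier. Positions and exon lengths came from GENCODE vM21, which holds 98.95% of the identifiers.

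CPM is the count per 1000000 counts of the tested genes, those that passed the filter. Counts were tested in R 4.3.3 with edgeR 4.0.16 (TMM scaling, default expression filter, quasi-likelihood F-test with no covariate, Benjamini-Hochberg adjustment over all tested genes), with SE from the coefficient and its F statistic. CPM values carry TMM factors and are mean ± SD. The members and lists were chosen with earlier results of these data known. CPM per library is given at least for the 3 genes of smallest p in each role and both genes of each pair, and from each related list up to 3 called genes of smallest p are named, with means or log2 changes. Paics is given per library in addition, chosen after its values were seen. Sequence sharing was counted as 50-base words found in transcripts of other annotated genes. The alternatives were DESeq2 1.42.0, limma-voom (limma 3.58.1), other scalings and filters, a robust fit, the replicate number as a block and each library left out.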

Additional observations from a re-analysis of the deposited data

Results flagged for a closer look

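Reads that fell in no annotated gene, counted in a summary row left out of all tests, made up a larger share of every Alox5-/- library than of any WT library. Their share averaged 9.76 ± 0.389% over the 3 Alox5-/- libraries (9.44 to 10.2%), against 9.24 ± 0.134% over the 3 WT libraries (9.10 to 9.37%). Groups of 3 are too small for the check on outlying samples, so it was not made.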

How the results depend on the processing

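The 4 higher members stayed at 4 under each of the 14 alternatives, and the lower members numbered 21 (upper-quartile scaling) to 26 (limma-voom), and 23 with DESeq2. All genes called numbered 6131 (mean of at least 5 CPM) to 7622 (no filter on low counts). With a library left out, called genes numbered 6583 to 7251, lower members 22 to 25, called genes of the related lists 66 to 73 and the median log2 fold change of members -0.17 to -0.14. Upper-quartile scaling moved that median to -0.13 and the median of all genes to 0.03. Of 546 values of single members under the alternatives, 516 kept their side of the threshold with 0 calls reversed, 21 lost a call and 9 gained one, and the cause was not tested. Higher MYC and ATF4 regulators numbered 4 rather than 2 under upper-quartile scaling and under the filter of 5 CPM, and higher ribonucleotide reductase and dNTP genes 2 rather than 1 under upper-quartile scaling. Without WT replicate 1 there was 1 higher pentose phosphate gene rather than 2, and without WT replicate 2 there were 5 lower other nucleotide kinases rather than 3. The lost calls were of Paics, Prps1, Dtymk and Uck1, and the gained ones of Nme2, Tk1 and Uck2. With a library left out, the differences of the pair ratios were -0.65 to -0.53 for Tk1 over Tk2, 0.55 to 0.65 for Gmpr over Gmpr2, -0.51 to -0.46 for Adss over Adssl1, -0.42 to -0.33 for Impdh1 over Impdh2, -0.31 to -0.23 for Prps1 over Prps2, -0.28 to -0.25 for Ctps over Ctps2, -0.09 to -0.05 for Uck1 over Uck2 and -0.39 to -0.08 for Nme1 over Nme2.

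Same-numbered libraries of the genotypes did not deviate together (correlations -0.02, -0.08 and 0.02), so the replicate numbers are taken as names. With the replicate block 7029 genes were called, with 23 lower and 4 higher members and 68 genes of the related lists, and the median of members was -0.15. Paics (edgeR adjusted p = 0.0626) and Uck1 (edgeR adjusted p = 0.0525) then lost their calls and Nme2 gained one (edgeR adjusted p = 0.0486). No Alox5-/- library correlated best with the WT library of its own number, and of the WT libraries only replicate 3 did so. Depth limits little here, since the lowest member count was 152, but sequence shared with other annotated genes limits Pnp, Nme2, Impdh2, Gmpr2, Itpa, Uck1, Gart, Gmpr and Nme1.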
